A study of Homo sapiens with 4 samples.

Results

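The 40 genes described here encode the enzymes and scaffolds that copy DNA and make its building blocks, namely the MCM, GINS, ORC, POL, PRIM, RFC and RPA proteins together with CDC6, CDT1, GMNN, CDC45, PCNA, FEN1, LIG1, RRM1, RRM2, TYMS and TK1. They were chosen by name, found on the arrays by the RefSeq accession of their probes and sorted by role into 5 groups, which are origin licensing (5 genes), helicase (12), polymerases (9), clamp loading and strand processing (10) and nucleotide supply (4). All 40 had a probe that passed the filter on low signal, among 18914 genes or transcripts measured. They were measured in HCT116, an established human colorectal carcinoma cell line, on one-colour Agilent arrays that hold 1 RNA sample each. MG cells are the HCT116 subpopulation that crossed the membrane of a migration chamber over repeated rounds, and non-MG cells are the subpopulation that stayed behind, each grown on as a culture of its own. Each subpopulation was treated for 48 h with 5 µM 5-azacytidine, a cytidine analogue that traps DNA methyltransferases, or with vehicle, and 400 ng of total RNA was labelled per array. The 4 conditions (non-MG vehicle, non-MG 5-azacytidine, MG vehicle and MG 5-azacytidine) have 1 array each, so the comparisons have no replicate check and no p-value. All 4 arrays lay on 1 slide, with the non-MG cells in one row and the MG cells in the other, and vehicle and 5-azacytidine in separate columns, so that neither cell type nor treatment can be told apart from position on the slide.

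A replication origin is licensed in G1 phase, when the origin recognition complex, CDC6 and CDT1 load the ring of MCM2 to MCM7 onto DNA. At the start of S phase the ring is joined by CDC45 and the GINS complex and becomes the active helicase, behind which DNA polymerase alpha with primase starts each strand and polymerases epsilon and delta extend it on the PCNA clamp. Ribonucleotide reductase, thymidylate synthase and thymidine kinase supply the deoxynucleotides, and ribonucleotide reductase also makes the deoxy form through which 5-azacytidine enters DNA. Many of these genes are textbook targets of the E2F transcription factors, which are released from the retinoblastoma protein as cells pass from G1 into S phase.

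The E2F binding word and the CCAAT box were therefore looked for in the promoters of the genes. RefSeq promoter sequences of the build GRCh38.p14, from 250 bases before to 50 after the start of the gene, were matched to 34 of the 40 by symbol, and MCM4, MCM5, GINS4, POLD3, RPA2 and RPA3 were not used here. At least 1 of the 4 words TTTCCCGC, TTTCGCGC, TTTGCCGC and TTTGGCGC, on either strand, stood in 17 of the 34 promoters (50%, 95% Wilson interval 34.1 to 65.9%). Of 35116 promoters of the same length, 3.31% held such a word, and of the 11176 promoters of measured genes, 5.15% did. With TTTGGCGC and TTTCCCGC alone the share was 44.1% among the 34, compared with 3.53% among the measured genes. CCAAT on either strand stood in 19 of the 34 (55.9%), compared with 36.8% among the measured genes. A match of letters is a description of the sequence and not a bound site. The Wilson interval treats the 34 genes as a random draw, whereas they were chosen by name.

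For each role group, the promoter of the gene with the largest mean absolute log2 ratio over the 4 comparisons is shown, from 180 bases before to 20 after the start of the gene, 5′ to 3′ on the strand of the gene. MCM6 was added after its words were seen, because it held 4 of them, which form 2 sites once overlaps are merged, as many as in MCM3 and MCM7. Capitals mark the E2F words and CCAAT, or ATTGG where CCAAT lies on the other strand. CDC6 stands for origin licensing, MCM10 and MCM6 for the helicase, POLE2 for the polymerases, RFC3 for clamp loading and RRM2 for nucleotide supply.
CDC6 (chr17:40287699-40287898, plus strand): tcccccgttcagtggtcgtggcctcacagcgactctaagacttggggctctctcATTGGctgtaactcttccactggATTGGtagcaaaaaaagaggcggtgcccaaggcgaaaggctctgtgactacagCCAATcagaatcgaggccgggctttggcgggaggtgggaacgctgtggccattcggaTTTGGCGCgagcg
MCM10 (chr10:13161378-13161577, plus strand): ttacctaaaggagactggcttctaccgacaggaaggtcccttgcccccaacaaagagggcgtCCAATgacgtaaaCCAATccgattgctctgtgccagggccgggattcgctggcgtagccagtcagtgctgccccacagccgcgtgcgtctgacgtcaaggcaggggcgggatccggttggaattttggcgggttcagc
MCM6 (chr2:135876424-135876623, minus strand): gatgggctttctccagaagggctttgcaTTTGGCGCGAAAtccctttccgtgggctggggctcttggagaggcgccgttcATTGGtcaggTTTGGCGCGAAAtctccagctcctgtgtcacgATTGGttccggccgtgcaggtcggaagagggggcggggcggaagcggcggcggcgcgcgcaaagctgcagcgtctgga
POLE2 (chr14:49688195-49688394, minus strand): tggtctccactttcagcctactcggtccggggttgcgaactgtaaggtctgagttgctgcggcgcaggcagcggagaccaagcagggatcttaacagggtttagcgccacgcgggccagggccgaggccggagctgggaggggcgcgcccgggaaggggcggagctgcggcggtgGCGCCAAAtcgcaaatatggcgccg
RFC3 (chr13:33817969-33818168, plus strand): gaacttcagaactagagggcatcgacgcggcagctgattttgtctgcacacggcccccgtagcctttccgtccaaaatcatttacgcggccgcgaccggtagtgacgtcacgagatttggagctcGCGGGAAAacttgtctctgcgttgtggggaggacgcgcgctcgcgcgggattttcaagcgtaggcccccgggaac
RRM2 (chr2:10122559-10122758, plus strand): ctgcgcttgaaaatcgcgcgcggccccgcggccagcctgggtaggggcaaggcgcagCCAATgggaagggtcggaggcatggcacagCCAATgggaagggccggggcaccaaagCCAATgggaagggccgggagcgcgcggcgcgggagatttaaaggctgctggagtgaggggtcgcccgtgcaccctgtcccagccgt

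The MCM6 promoter held 4 E2F words, which overlap in pairs and form 2 stretches of the same letters. CDC6, POLE2 and RFC3 held 1 word each. In the window searched, MCM10 and RRM2 held none of the 4 words, while MCM10 held 2 CCAAT boxes and RRM2 held 3 in a row. The printed MCM10 and CDC6 promoters also hold tttggcgg, which differs from TTTGGCGC in its last letter and was not counted. A gene without any of the 4 words can therefore still hold a close variant. The 17 genes with an E2F word had a median MG/non-MG log2 ratio of 0.72 with vehicle and 0.54 with 5-azacytidine, compared with 0.49 and 0.47 for the 17 without one. Both sets ranged widely with vehicle, from 0.21 to 1.17 and from 0.11 to 1.08, so that the sets overlap over most of their range.

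All values that follow are on a log2 scale. A level is the log2 of the background-corrected intensity minus the 75th percentile of its array, averaged over the probes of a gene, and a ratio is a difference of 2 levels, written MG/non-MG where it sets the MG array against the non-MG array of the same treatment. The 75th percentile of intensity was between 75.2 and 98.7 on the 4 arrays, from 21382 to 21880 probes were well above background on each, and no spot was saturated. Of 50 probes for the 40 genes, all were retained, and on all 4 arrays 48 were well above background. The spot error given beside a ratio comes from probes spotted 10 times on each array and takes in spotting and scanning, but neither culture nor labelling. Over the 40 genes its median was 0.08 for the MG/non-MG ratio with vehicle, with a range from 0.03 to 0.44. A gene was counted as higher or lower past 1.5-fold, which is 0.58 on the log2 scale. In bulk RNA, more cells in S phase and more mRNA per cell cannot be told apart.

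With vehicle, all 40 genes had a higher level on the MG array than on the non-MG array. Their median log2 ratio was 0.66, compared with -0.03 over all genes measured. Past 1.5-fold, 22 of the 40 were higher and 0 were lower, whereas 8.23% of all genes measured were higher and 12.6% were lower. Of the 15017 genes that were detected well above background by all 4 arrays, 5.67% were higher and 8.05% were lower. The ratio of the 40 genes ran from 0.11 for RPA1 to 1.17 for CDC6, and 37 of them lay above the upper quartile of all genes, which was 0.24. For 37 genes the ratio was more than 2 spot errors above 0, compared with 23.2% of all genes measured and 39.2% of those with a mean log2 intensity from 9 to 11, the range that holds the median of the 40, which was 9.75. The other 3 were POLE, POLD2 and RPA1.

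With 5-azacytidine, on the other pair of arrays, 39 of the 40 genes were again at a higher level in the MG cells, and POLE had a ratio of -0.03. The median log2 ratio of the 40 was 0.52, compared with -0.01 over all genes measured. Past 1.5-fold, 12 of the 40 were higher and 0 were lower, beside 8.6% higher and 12.3% lower among all genes measured, and 5.73% higher and 7.13% lower among those well above background on all 4 arrays. The ratios with vehicle and with 5-azacytidine come from separate arrays. Of the 40 genes, 11 were past 1.5-fold in both, 11 with vehicle alone and 1, CDT1, with 5-azacytidine alone. This split depends on the scaling, since the counts past 1.5-fold with vehicle and with 5-azacytidine were 30 and 31 with median centring, 19 and 19 with normexp background correction, and 22 and 7 with the 75th percentile of probes well above background. Across the 40 genes the 2 ratios had a Pearson r of 0.79, near the 0.72 over all genes well above background. Both are descriptions, since the genes share their arrays.

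**Figure D1:**
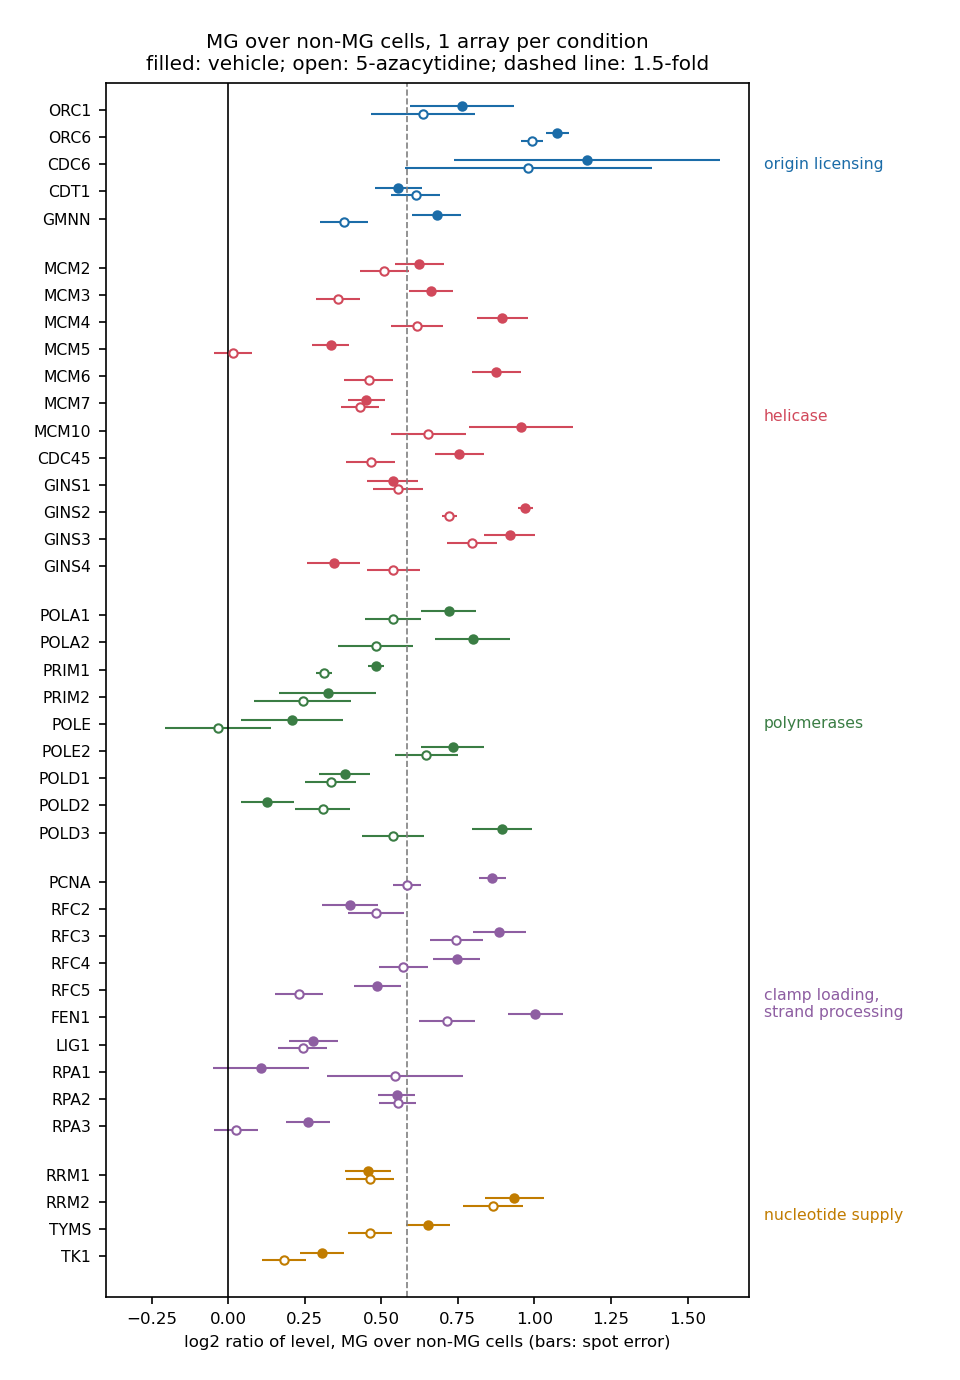
Log2 ratio of level, MG over non-MG cells, for each of the 40 genes (x axis), by role group, with vehicle (filled points) and with 5-azacytidine (open points). Bars are the spot error, there is 1 array per condition, and the dashed line is 1.5-fold. With vehicle all points lie above 0 and 22 lie past the dashed line, and with 5-azacytidine 12 do.

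For 38 of the 40 genes both MG arrays were above both non-MG arrays, whatever the treatment. This held for 28.8% of all genes measured and for 32.7% of those well above background on all 4 arrays. The exceptions were POLE and RPA3. Between the lowest MG and the highest non-MG array the gap was past 1.5-fold for 8 of the 40 genes (ORC6, CDC6, MCM4, GINS2, GINS3, RFC3, FEN1 and RRM2), compared with 1.9% of all genes measured and 1.58% of those well above background on all 4 arrays. The highest of the 4 arrays was MG vehicle for 28 of the 40 genes and MG 5-azacytidine for 12. The lowest was non-MG vehicle for 25 and non-MG 5-azacytidine for 15.

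**Figure D2:**
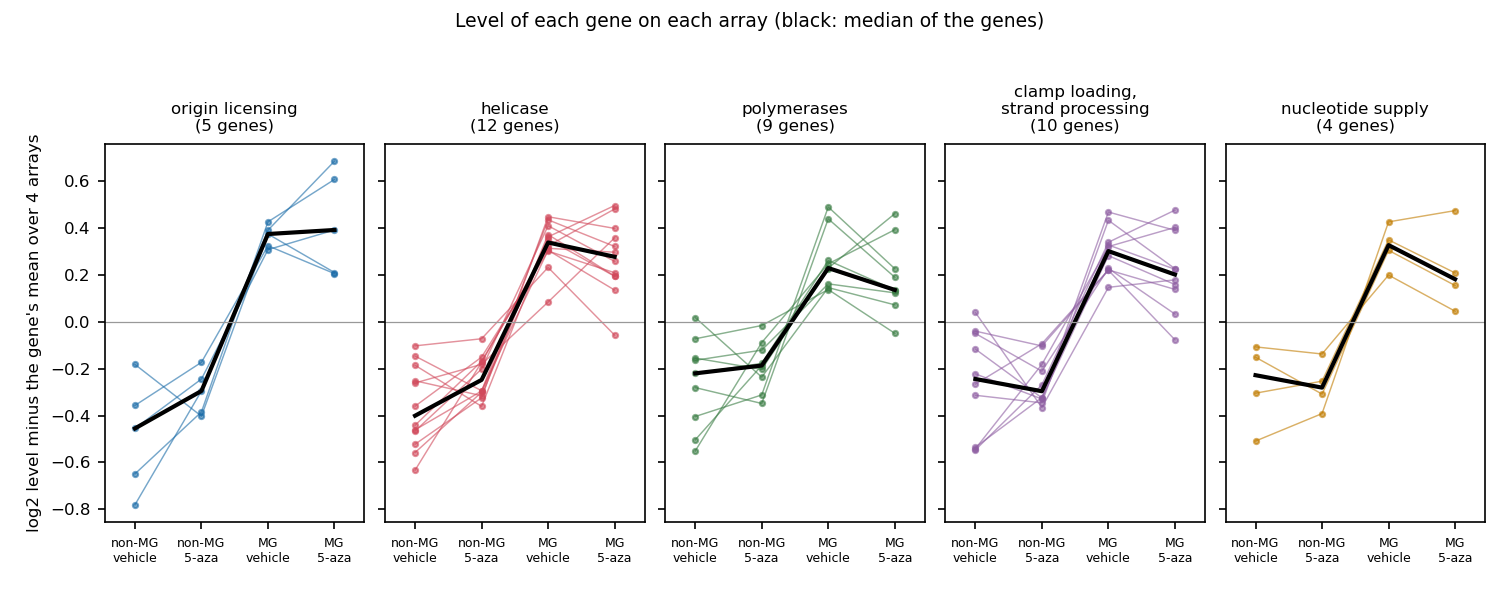
Log2 level of each gene on each of the 4 arrays minus its own mean over the 4 arrays (y axis), in 1 panel per role group. Thin lines are genes and the black line is their median. In each group the median of the MG arrays sits above that of the non-MG arrays, and for 38 of the 40 genes both MG arrays are above both non-MG arrays.

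The 5 genes of origin licensing had the highest median log2 ratio of the 5 groups, 0.76 with vehicle and 0.64 with 5-azacytidine, and 4 of the 5 were higher past 1.5-fold in each comparison. CDC6, the ATPase that helps to load the MCM ring, had levels of -2.82, -2.33, -1.65 and -1.35 on the arrays of non-MG vehicle, non-MG 5-azacytidine, MG vehicle and MG 5-azacytidine, the order in which all levels are given. Its log2 ratio was 1.17 (spot error 0.44) with vehicle and 0.98 (spot error 0.40) with 5-azacytidine. CDC6 was a dim probe, and its intensity of 12.3 on the non-MG vehicle array was close to the lowest intensity well above background there, 10.04, so its fold is the least certain of the group. ORC6, a subunit of the origin recognition complex, had levels of 0.48, 0.75, 1.56 and 1.74. The log2 ratio came to 1.08 (spot error 0.04) with vehicle and 0.99 (spot error 0.04) with 5-azacytidine, which is 2.11-fold and 1.99-fold. The ORC6 probe was spotted 10 times, and its spots ran from 0.41 to 0.56 on the non-MG vehicle array and from 1.254 to 1.72 on the MG vehicle array, without overlap.

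ORC1, the largest subunit of the complex, had levels of -0.49, -0.28, 0.27 and 0.36, which put both MG arrays above both non-MG arrays. Its log2 ratio stood at 0.76 (spot error 0.17) with vehicle and 0.64 (spot error 0.17) with 5-azacytidine. CDT1, which brings the MCM ring to the origin, and GMNN, geminin, the protein that blocks CDT1 outside G1, were both higher in the MG cells. CDT1 had log2 ratios of 0.56 with vehicle and 0.61 with 5-azacytidine, on either side of the 1.5-fold threshold by less than its spot error of 0.08. GMNN had log2 ratios of 0.68 and 0.38, with a spot error of 0.08.

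Among the 12 helicase genes the median log2 ratio was 0.71 with vehicle and 0.53 with 5-azacytidine, and 8 and 4 of them were higher past 1.5-fold. The 6 subunits of the MCM2 to MCM7 ring did not differ by the same amount. MCM4 had levels of 2.60, 2.77, 3.50 and 3.39 and a log2 ratio of 0.90 (spot error 0.08) with vehicle. MCM6 had levels of 4.37, 4.63, 5.24 and 5.09 and a log2 ratio of 0.88 (spot error 0.08). MCM5 lay at the other end of the ring, with levels of 3.10, 3.13, 3.43 and 3.14 and a log2 ratio of 0.33 (spot error 0.06). MCM2, MCM3 and MCM7 had log2 ratios of 0.62, 0.66 and 0.45 with vehicle. With 5-azacytidine MCM4 was the one ring subunit still past 1.5-fold, at 0.62, and MCM2, MCM3, MCM5, MCM6 and MCM7 had log2 ratios of 0.51, 0.36, 0.02, 0.46 and 0.43. For MCM5 the ratio with 5-azacytidine was within its spot error of 0.06. That ratio is the mean of 2 probes that disagree, at -0.15 (spot error 0.10) and 0.18 (spot error 0.08). With vehicle both probes were higher in the MG cells, at 0.42 and 0.25.

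MCM10, which is needed to activate the loaded ring, had levels of -0.66, -0.20, 0.30 and 0.45. Its log2 ratio was 0.96 (spot error 0.17) with vehicle and 0.65 (spot error 0.12) with 5-azacytidine. CDC45, the partner of the ring and of GINS, had log2 ratios of 0.75 and 0.47, each with a spot error of 0.08. The 4 GINS subunits, which form a complex of 1 copy each, were split. GINS2 had levels of 3.70, 3.90, 4.67 and 4.62 and a log2 ratio of 0.97 (spot error 0.03) with vehicle, and its 10 spots ran from 3.58 to 3.80 on the non-MG vehicle array and from 4.50 to 4.77 on the MG vehicle array. GINS3 had levels of 2.85, 3.11, 3.77 and 3.91 and a log2 ratio of 0.92 (spot error 0.08). GINS2 and GINS3 stayed past 1.5-fold with 5-azacytidine, at 0.72 and 0.80. GINS1 had log2 ratios of 0.54 and 0.55, and GINS4 had 0.35 and 0.54, none of which passed 1.5-fold.

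The 9 polymerase genes had a median log2 ratio of 0.48 with vehicle and 0.34 with 5-azacytidine, the lowest of the 5 groups in each, and 4 and 1 of them were higher past 1.5-fold. In polymerase alpha, which makes the primer of each strand, the catalytic subunit POLA1 had levels of 2.44, 2.37, 3.16 and 2.91 and a log2 ratio of 0.72 (spot error 0.09) with vehicle. Its B subunit POLA2 had levels of 0.30, 0.77, 1.102 and 1.247 and a log2 ratio of 0.80 (spot error 0.12). The primase subunits were closer to 0. PRIM1 had a log2 ratio of 0.48 (spot error 0.03), and its 10 spots ran from 3.17 to 3.33 with non-MG vehicle and from 3.39 to 3.80 with MG vehicle. PRIM2 had a log2 ratio of 0.33 (spot error 0.16) as the mean of 3 probes, with 0.21, 0.55 and 0.22 each. The dimmest PRIM2 probe was too dim to be well above background on the non-MG vehicle array, and its ratio of 0.22 was within its spot error of 0.44.

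In polymerase epsilon, which extends the leading strand, the catalytic subunit and its partner did not move together. POLE2 had levels of 0.76, 1.07, 1.49 and 1.72, with both MG arrays above both non-MG arrays. The log2 ratio came to 0.73 (spot error 0.10) with vehicle and 0.65 (spot error 0.10) with 5-azacytidine, the one polymerase gene past 1.5-fold in both. POLE had levels of -1.21, -1.16, -1.0 and -1.19 and log2 ratios of 0.21 and -0.03, each with a spot error of 0.17. Its 2 probes had log2 ratios of -0.02 (spot error 0.13) and 0.44 (spot error 0.30) with vehicle. In polymerase delta, which extends the lagging strand, POLD3 had levels of 1.56, 1.65, 2.45 and 2.19 and log2 ratios of 0.89 (spot error 0.10) and 0.54. The catalytic subunit POLD1 had log2 ratios of 0.38 and 0.34, and POLD2 had 0.13 and 0.31, with spot errors of 0.08 to 0.09. With 5-azacytidine the ratios of POLA1, POLA2, PRIM1 and PRIM2 were 0.54, 0.48, 0.31 and 0.24.

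Of the 10 genes of clamp loading and strand processing, 4 were higher past 1.5-fold with vehicle and 2 with 5-azacytidine, and the median log2 ratio was 0.52 and 0.55. PCNA, the sliding clamp that holds polymerases on DNA, was measured by 3 probes and had levels of 4.54, 4.89, 5.40 and 5.48. Its log2 ratio stood at 0.86 (spot error 0.04) with vehicle, between 0.75 and 1.01 over the probes. With 5-azacytidine it was 0.58 (spot error 0.04), just short of 1.5-fold. FEN1, the flap endonuclease that trims Okazaki fragments, had levels of 1.61, 1.83, 2.62 and 2.54, with both MG arrays above both non-MG arrays. Its log2 ratio was 1.003 (spot error 0.09) with vehicle and 0.71 (spot error 0.09) with 5-azacytidine. LIG1, the ligase that seals the same fragments, had log2 ratios of 0.28 and 0.24, with a spot error of 0.08.

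The subunits of replication factor C, which opens PCNA and places it on DNA, ran from RFC3 at the top to RFC5 and RFC2 at the bottom with vehicle. RFC3 had levels of -0.01, 0.26, 0.87 and 1.01 and log2 ratios of 0.89 (spot error 0.09) and 0.75 (spot error 0.09), and both of its probes were higher in the MG cells in both comparisons. RFC4, RFC5 and RFC2 had log2 ratios of 0.75, 0.49 and 0.40 with vehicle and of 0.57, 0.23 and 0.48 with 5-azacytidine. With vehicle RFC5 and RFC2, with spot errors of 0.08 and 0.09, were too close to be put in order. The subunits of replication protein A, which coats single-stranded DNA, were split. RPA2 had log2 ratios of 0.55 and 0.55, and RPA3 had 0.26 and 0.03, with spot errors of 0.06 and 0.07. RPA3 had levels of 5.85, 5.79, 6.11 and 5.82, so that its MG 5-azacytidine array lay within the range of its non-MG arrays.

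RPA1 had log2 ratios of 0.11 (spot error 0.16) and 0.54 (spot error 0.22) as the mean of 2 probes that disagree. Its bright probe had levels of 5.06, 5.00, 5.55 and 5.47 and log2 ratios of 0.50 and 0.47, each with a spot error of 0.08. Its dim probe had levels of -1.98, -2.73, -2.27 and -2.11 and a log2 ratio of -0.28 (spot error 0.30) with vehicle. On the non-MG 5-azacytidine array it was not well above background, and its log2 ratio with 5-azacytidine was 0.62 (spot error 0.44). On the bright probe alone, RPA1 lay near RPA2.

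Nucleotide supply had a median log2 ratio of 0.55 with vehicle and 0.46 with 5-azacytidine over its 4 genes. RRM2, the small subunit of ribonucleotide reductase that is made in S phase, had levels of 1.48, 1.59, 2.41 and 2.46. The log2 ratio came to 0.93 (spot error 0.10) with vehicle and 0.87 (spot error 0.10) with 5-azacytidine. The gap between its lowest MG and highest non-MG array was 0.82. This gap and that of ORC6, at 0.81, were the widest of the 40 genes and too close to be put in order. RRM1, the large subunit, had log2 ratios of 0.46 and 0.46 with a spot error of 0.08. TYMS, thymidylate synthase, had levels of 6.14, 6.19, 6.80 and 6.66 and log2 ratios of 0.65 (spot error 0.07) and 0.46. TK1, thymidine kinase, had levels of 8.76, 8.73, 9.07 and 8.91 and log2 ratios of 0.31 (spot error 0.07) and 0.18, with both MG arrays still above both non-MG arrays.

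**Figure D3:**
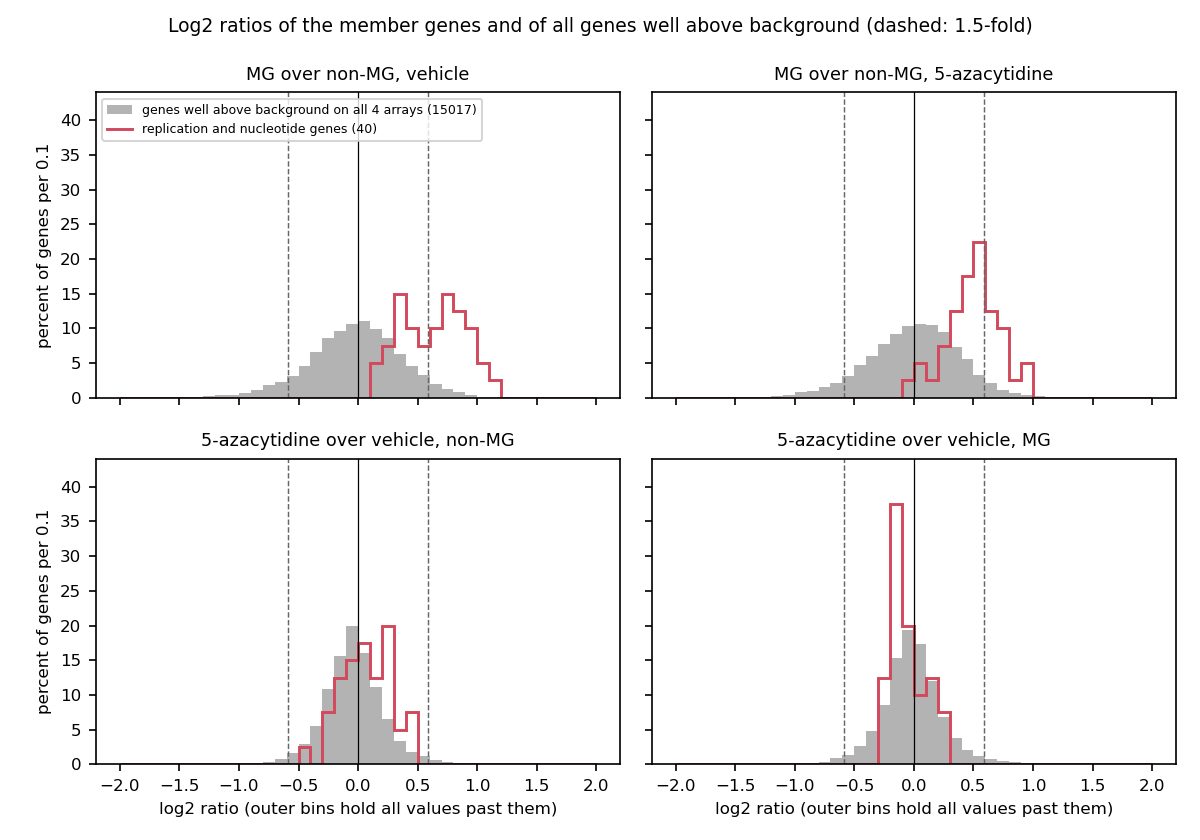
Percent of genes in each 0.1-wide bin (y axis) of the log2 ratio (x axis) in the 4 comparisons, for 15017 genes well above background on all 4 arrays (grey) and for the 40 replication and nucleotide genes (red line), 2 of which have a probe that was not. In the upper panels the 40 genes sit to the right of all genes, with medians of 0.66 and 0.52, and in the lower panels they lie within the range of all genes with none past the dashed lines at 1.5-fold.

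With 5-azacytidine these genes differed less from vehicle than the MG cells did from the non-MG cells. None of the 40 genes passed 1.5-fold in either direction in either cell type. Among all genes measured, 6.01% were higher and 4.58% lower past 1.5-fold with 5-azacytidine in the non-MG cells, and 7.62% higher and 6.38% lower in the MG cells. Where all 4 arrays were well above background these shares were 1.86% and 1.63% in the non-MG cells and 2.95% and 2.09% in the MG cells, so that a count of 0 among 40 lies near the background. The 40 genes had a median log2 ratio of 5-azacytidine over vehicle of 0.07 for non-MG and of -0.10 for MG cells, beside -0.04 and -0.02 over all genes measured. The median in the non-MG cells turned below 0 with normexp background correction (-0.0035) and with median centring (-0.030). The widest ratios in the non-MG cells were 0.49 for CDC6 (spot error 0.53), 0.46 for MCM10 (spot error 0.17) and 0.46 for POLA2 (spot error 0.13). Lowest was RPA1 at -0.41 (spot error 0.22). CDC6 did not exceed its spot error. The RPA1 value came from its dim probe, at -0.75, which was not well above background on the non-MG 5-azacytidine array. The bright RPA1 probe had -0.06. In the MG cells the widest ratios ran from -0.30 for RPA3 (spot error 0.07) and -0.29 for MCM5 (spot error 0.06) to 0.29 for CDC6 (spot error 0.26) and 0.27 for GINS4 (spot error 0.09).

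In the non-MG cells 14 genes were above 0 and 6 below 0 by more than 2 spot errors, and in the MG cells 3 were above and 11 below. Of all genes measured, 10.3% and 17% were above and below by this measure in the non-MG cells and 15.1% and 16.3% in the MG cells. At log2 intensities from 9 to 11 these shares were 10.7% and 28.4%, and 17.4% and 20.1%. By sign alone, 14 genes had a ratio above 0 in the non-MG cells and below 0 in the MG cells. Another 11 were above 0 in both, 14 were below 0 in both and 1, RPA1, was below 0 in the non-MG cells alone. On its bright probe RPA1 was below 0 in both, at -0.06 and -0.09. These counts depend on the scaling. In the non-MG cells 25 genes were above 0, but 20 with normexp background correction and 18 with median centring. With the 75th percentile of probes well above background 31 were. Among the genes above 0 in the non-MG cells and below 0 in the MG cells, MCM6 had the largest difference, with log2 ratios of 0.26 and -0.15. For 32 of the 40 genes the response was lower in the MG cells, compared with 47.2% of all genes measured. The median of the differences was -0.15, compared with 0.02 over all genes. It was -0.26 for the helicase genes, -0.17 for the polymerases, -0.16 for clamp loading and strand processing, -0.13 for origin licensing and -0.10 for nucleotide supply. For 13 of the 40 the difference was more than 2 spot errors below 0, and for 0 it was more than 2 spot errors above 0. This compares with 7.94% below and 11.9% above for all genes measured, and with 8.13% and 19.1% at log2 intensities from 9 to 11. The same 4 arrays give this difference and the narrower gap between the cell types with 5-azacytidine, so that they are 1 observation and not 2.

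**Figure D4:**
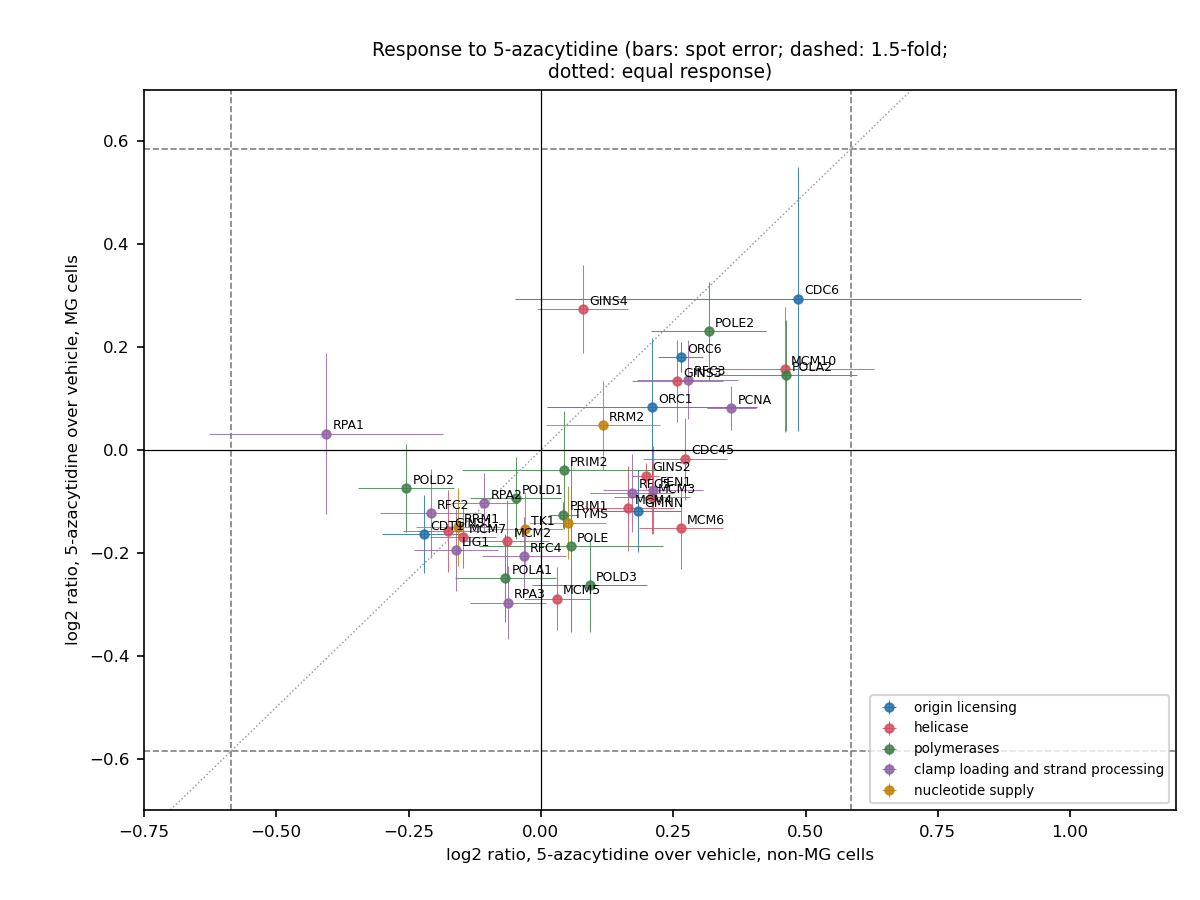
Log2 ratio of 5-azacytidine over vehicle in non-MG (x axis) and MG cells (y axis) for the 40 genes, coloured by role group, with spot errors as bars. All points lie inside the dashed lines at 1.5-fold, and 32 of the 40 lie below the dotted line of equal response.

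Other genes of the same processes were set beside the 40. Of 38 further genes of the replication fork, all measured, 10 were higher and 1 was lower past 1.5-fold for MG/non-MG with vehicle, with a median log2 ratio of 0.48, and 7 were higher with 5-azacytidine, with a median of 0.34. TIPIN, a subunit of the fork protection complex, had levels of 3.27, 3.66, 4.22 and 4.25 and log2 ratios of 0.95 and 0.59. CHAF1A and CHAF1B, subunits of the chromatin assembly factor that follows PCNA, had log2 ratios of 0.85 and 0.87 with vehicle and of 0.47 and 0.55 with 5-azacytidine. ATAD5, which unloads PCNA, had 0.93 and 0.38 (spot error 0.26), and WDHD1, which couples polymerase alpha to the helicase, had 0.82 and 0.51. UHRF1, which guides DNA methyltransferase DNMT1 to new DNA, had 0.66 and 0.21. The lower gene was POLD4, the smallest subunit of polymerase delta, with levels of 4.72, 4.40, 3.92 and 4.0 and log2 ratios of -0.80 (spot error 0.08) and -0.39. Polymerase delta therefore held subunits on both sides, with POLD3 at 0.89 and POLD4 at -0.80.

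Of 26 further genes of nucleotide synthesis, 5 were higher past 1.5-fold with vehicle and 1 with 5-azacytidine, 0 were lower, and the median log2 ratio was 0.22 and 0.31. Among them were DCK, deoxycytidine kinase, at 0.95 (spot error 0.26), CTPS1, CTP synthase, at 0.77, UMPS, which makes UMP, at 0.75, and DUT, which breaks down dUTP, at 0.61. CTPS1 was the one gene past 1.5-fold with 5-azacytidine, at 0.73. RRM2B, the p53-induced small subunit of ribonucleotide reductase, had levels of -0.30, 0.15, -0.25 and 0.06, so that both 5-azacytidine arrays were above both vehicle arrays, with MG/non-MG log2 ratios of 0.04 and -0.09.

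Regulators of the step from G1 into S phase had a median log2 ratio of 0.34 with vehicle and 0.40 with 5-azacytidine over 30 genes, with 9 higher and 1 lower past 1.5-fold in each. CDC25A, the phosphatase that activates CDK2, had levels of 0.56, 1.09, 1.87 and 1.94 and log2 ratios of 1.31 (spot error 0.10) and 0.85. E2F1 had levels of 1.24, 1.43, 2.12 and 2.11 and log2 ratios of 0.88 (spot error 0.03) and 0.67. E2F2 had 0.75 and 0.65, MYBL2, another E2F target, had 0.70 and 0.68, and the E cyclins CCNE1 and CCNE2 had 0.67 and 0.89 with vehicle. The lower gene in both was TFDP2, a dimer partner of the E2F proteins, at -0.63 and -0.93. CDKN1A, the CDK inhibitor p21, had levels of 1.28, 1.44, 1.55 and 2.11 and log2 ratios of 0.26 (spot error 0.10) and 0.67, and was thus higher past 1.5-fold in the MG cells with 5-azacytidine together with CDC25A and E2F1.

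The 20 mitosis genes were all above 0 in both comparisons, with medians of 0.31 and 0.40, and 4 and 6 of them were higher past 1.5-fold. CENPE, a kinetochore motor, had log2 ratios of 1.06 and 1.36, CCNB1 had 0.60 and 0.74, KIF11 had 0.62 and 0.28, AURKA had 0.47 and 0.66, TOP2A, which is also counted with the fork genes, had 0.53 and 0.74, and MKI67, the Ki-67 antigen, had 0.30 and 0.03. CENPF, a kinetochore protein, had 0.07 and 0.89. The median of the mitosis genes went up from vehicle to 5-azacytidine while that of the 40 genes went down. The 19 p53 target genes measured had medians of 0.11 and 0.29, and CDKN1A and RRM2B are counted among them as well. With vehicle 3 of them were higher and 1 was lower past 1.5-fold, and with 5-azacytidine 6 were higher and 0 lower. Beside CDKN1A, these were FAS at 0.87 and 1.49, with a probe that was not well above background on every array, TP53I3 at 0.86 and 1.04, BAX at 0.29 and 1.01, TIGAR at 0.77 and 0.56, MDM2 at 0.30 and 0.67, AEN at 0.58 and 0.64 and PLK3 at -0.66 and -0.48. Housekeeping genes had medians of -0.06 and 0.02 over 15 genes, with GAPDH at -0.31 and -0.39, TFRC at 1.12 and 1.09 and PGK1 at -0.72 and -0.54.

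**Figure D5:**
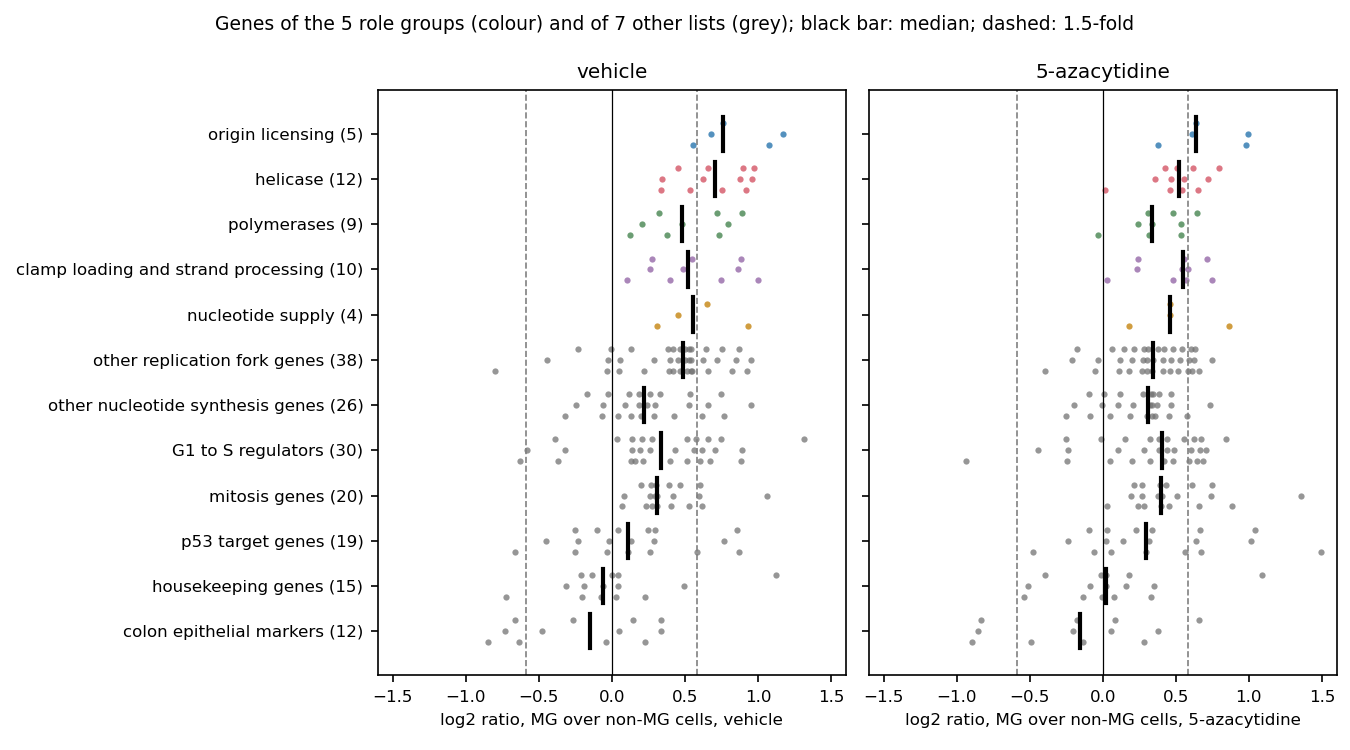
MG/non-MG log2 ratio (x axis) for the genes of the 5 role groups (coloured) and of 7 other lists (grey), with vehicle (left) and with 5-azacytidine (right), 1 point per gene, with the number of genes in brackets. Black bars are medians, which lie between 0.48 and 0.76 in the role groups with vehicle and between -0.15 and 0.48 in the other lists.

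The labelled cell type was checked by its markers. EPCAM had levels of 6.60, 6.37, 6.65 and 6.43, and KRT18 had 7.34, 7.41, 7.49 and 7.69, on the 4 arrays. All 4 arrays detected 11 of 14 colon epithelial markers well above background, with a summed intensity between 98637 and 119062. Of 10 fibroblast markers 1 was, of 10 leukocyte markers 3 and of 6 endothelial markers 1, with summed intensities of at most 117, 861 and 35.6. PTPRC and CD3E of leukocytes, PECAM1 and CDH5 of endothelium and COL1A2, DCN and LUM of fibroblasts had no probe past the filter on low signal. CD79A, with intensities from 551 to 760, made up most of the leukocyte sum on each array and had a log2 ratio of -0.39 with vehicle. The dimmer COL1A1, CD14, CD68 and VWF had -0.92, -0.53, -0.23 and -0.33. Of the 12 colon epithelial markers measured, 5 had an MG/non-MG log2 ratio above 0 and 7 below 0 with vehicle, with a median of -0.15. Past 1.5-fold 0 were higher and 4 lower, namely CLDN3, CLDN4, CDH1 and the dim GPA33 at -0.85, -0.73, -0.66 and -0.64. For CDH1 this differs from the study, which reports its mRNA as unchanged in MG cells, by array and by qPCR relative to GAPDH. Over the 12 epithelial markers the median log2 ratio of 5-azacytidine over vehicle was 0.02 for non-MG and 0.03 for MG cells. The part of such a difference in the ratios of the replication genes was not tested.

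Signal strength was looked at in the same way. The 40 genes had a mean log2 intensity between 4.43 and 15.3, and across them the ratio with vehicle had a Pearson r of -0.25 with it. In 4 ranges of mean log2 intensity from 5 upward, the median ratio of all genes with vehicle ran from -0.06 to 0.06. With 5-azacytidine it ran from -0.04 to 0.12, highest at intensities from 9 to 11, where 64.8% of all genes were above 0. When each array was centred on its median in place of its 75th percentile, the median of all genes shifted to 0.17 with vehicle and to 0.25 with 5-azacytidine, and the median of the response in the non-MG cells to -0.13. With this centring 15.8% of genes were higher and 7.66% lower for MG/non-MG with vehicle, 20.9% and 6.25% with 5-azacytidine, and 4.93% were higher and 6.72% lower with 5-azacytidine in the non-MG cells. Scaling to the 75th percentile of probes well above background gave 6.6% higher and 15.3% lower in the MG cells with 5-azacytidine, and centring along intensity gave 10.1% and 9.97% with vehicle and 9.87% and 9.51% with 5-azacytidine. Relative to the median of all genes, the median of the 40 was 0.69 with vehicle and 0.53 with 5-azacytidine, which a constant per array cannot change, and 0.62 and 0.44 after centring along intensity.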

How the data were processed

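Total RNA of 4 conditions was hybridized to 1 one-colour Agilent array each, all on 1 slide with 1 scan. The labels name RNAiso Plus for the extraction and the methods of the study an RNeasy kit. The authors deposited Agilent Feature Extraction 11.5.1.1 output, with a linear background-corrected intensity per spot and flags for outliers and for signal well above background, not normalized between arrays. They also deposited log2 values for 24189 probes from GeneSpring, each probe centred on its median over the 4 arrays, which served as an alternative. The design of the array refers to an earlier genome build, so the only coordinates given are those of RefSeq promoters (GRCh38.p14).

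From the intensity, log2 minus the 75th percentile of the array over non-control probes was computed, without outlier spots, with a mean over the spots of a probe. A probe was dropped if it was in the lowest 20th percentile on at least 2 arrays or was never well above background, which kept 23854 of 50594 probes. Accessions without version were matched to RefSeq genes, which named 79.4% of the retained probes (14313 gene symbols). Retained probes of a gene were averaged. With 1 array per condition no test was made, and a gene was counted past 1.5-fold, close to the smallest change that the study lists. Where a probe was not well above background on 1 array, its ratio used the dim signal as measured. Spot error is the median SD between spots of 902 probes spotted 10 times, by range of intensity. The counting was tested on simulated arrays, where 200 of 200 changed genes were recovered. No share of unchanged genes counted is given, so this checks the counting itself and not the calls in these data. The number of arrays limits the precision.

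The members and lists were chosen with earlier results of these data known. All 40 members are named, and from each other list at most 6 genes by size that were well above background on both arrays of a comparison and past 1.5-fold in it, plus E2F1, CCNE1, CCNE2, CDKN1A, RRM2B, MKI67, UHRF1 and GAPDH. Some genes of these lists are not reported here. Other genes named serve to check the labelled cell type or were chosen after their values were seen. Alternatives were normexp background correction (offset 50, on median spot signals), median centring, quantile normalization, the 75th percentile of probes well above background, no filter, a stricter filter that asks for signal well above background on every array, a floor at the detection limit, the brightest probe, counts of probes, the deposited log2 values of the authors and log2 thresholds of 0.32 and 1. Centring along intensity and on 15 housekeeping genes were added after the data were seen. Software was limma 3.58.1 under R 4.3.3, and Python 3.11.15 with matplotlib 3.10.9, pandas 2.3.3 and numpy 2.4.6.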

Additional observations from a re-analysis of the deposited data

Results flagged for a closer look

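None of the 40 genes had a response to 5-azacytidine that was opposite in the 2 cell types and beyond 2 spot errors in each. Of the other genes named, 3 did. WDHD1 had a log2 ratio of 5-azacytidine over vehicle of 0.07 in the non-MG cells and of -0.24 in the MG cells, a difference of -0.31. Median centring moved the median of all genes in the non-MG cells from -0.04 to -0.13, so the sign of the WDHD1 ratio there depends on the scaling. CENPF had -0.41 and 0.40, a difference of 0.82, and BAX had -0.30 and 0.43, a difference of 0.73. With 1 array per condition these differences were not tested.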

How the results depend on the processing

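The median of the 40 genes stayed above 0 for MG over non-MG cells under all alternatives. It moved to 0.85 with vehicle and 0.78 with 5-azacytidine under median centring, and to 0.44 with 5-azacytidine when the 75th percentile was taken over probes well above background. The count higher past 1.5-fold with vehicle was 3 at a 2-fold and 34 at a threshold of 0.32 on the log2 scale. With 5-azacytidine it was 19 with normexp, 31 with median centring, 7 with the 75th percentile of probes well above background, 0 at 2-fold and 31 at 0.32. The median response to 5-azacytidine in the non-MG cells turned below 0 with normexp (-0.0035) and with median centring (-0.030). At 0.32, 4 genes were higher and 1 was lower there, and counting probes in place of genes gave 1 lower. Both of these lower counts were RPA1, through its dim probe. The median of the differences in response between the cell types kept its sign, from -0.22 to -0.09. The cause of these shifts was not tested.

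No replicate could be left out and no block for the slide fitted, because each condition has 1 array on 1 slide, and no paired analysis was possible for the same reason. Spot error was 0.38 at log2 intensities from 3 to 4 and 0.05 above 12, so CDC6 and the dim probes of PRIM2, POLE and RPA1 carry the widest errors.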
